A study of Arabidopsis thaliana with 18 samples.

Results

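HRA1 (HYPOXIA RESPONSE ATTENUATOR1, locus AT3G10040) is an Arabidopsis gene that encodes a transcription factor of the trihelix family. It was followed here through the 1 probe set that names it, out of 22746 probe sets tested, on 18 one-colour Affymetrix Arabidopsis Genome arrays. The arrays came from Arabidopsis thaliana Columbia 0, whole rosettes 5 weeks old, held in darkness at 22 °C for 1.5 h. The 3 genotypes were wild type, 35S::HA::RAP2.12 (called HA-RAP2.12) and 35S::amiRAP2.2-12 (called amiRAP2.2-12), the last an artificial microRNA construct whose name gives RAP2.2 and RAP2.12 as its targets. Each genotype was sampled at 21% oxygen (air) and at 1% oxygen (hypoxia), with 3 arrays in each of the 6 groups. The 35S promoter is active in most plant cells, so neither construct was restricted to a cell type. Whether each construct stands for 1 transgenic line, and whether the replicates were separate plants, is not given in the sources used here, so p-values measure the spread between these samples, which may be technical.

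RAP2.12 and RAP2.2 belong to the group VII ethylene response factors, which are broken down in air through an oxygen-dependent degradation signal at their N-terminus and persist when oxygen falls. They then switch on a core set of low-oxygen genes for fermentation, sucrose breakdown and signalling. HRA1 is itself one of the genes induced in this way, and its protein is known to bind RAP2.12 and to restrain its activity, which makes it a negative feedback arm of the low-oxygen response. The series asks how altering RAP2.12 changes expression in air and under hypoxia. Values are log2 levels from GCRMA, a method that removes background, equalises the arrays and summarises the probes of a probe set. The annotation used here named no probe set for RAP2.12 or RAP2.2, so the effect of the constructs on their own targets was not analysed here.

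The arrays were first compared with each other. On the second principal component of the 10988 brighter probe sets (mean above log2 6), replicate 2 of amiRAP2.2-12 under hypoxia lay at -47.4, and the other 17 arrays lay between -13.9 and 19.8. That array read 10.34 for HRA1, the middle value of its group, and leaving it out changed no call for HRA1. Of 9 rosette markers, 3 had a named probe set, and all were bright. The group means ran from 14.89 to 15.01 for RCA (rubisco activase), from 13.10 to 13.63 for PRK and from 13.09 to 13.50 for SBPASE (both enzymes of the Calvin cycle). Of 5 root markers, 3 had a named probe set. LBD29 stood at the array minimum of 2.11 throughout and AT4G11290 had group means from 2.14 to 2.47, while PYK10, a beta-glucosidase of roots and hypocotyls, was measurable. None of 5 flower and seed markers had a named probe set. In whole rosettes, fewer cells of a type and less RNA per cell cannot be told apart.

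HRA1 was low in every air array and high in every hypoxia array. In wild type air it read 3.42, 3.42 and 3.39 in replicates 1 to 3, a mean of 3.41 ± 0.02 (SD, n = 3). In amiRAP2.2-12 air it read 3.57, 3.39 and 3.56 (3.50 ± 0.10, n = 3), overlapping the wild type range. The lowest value, 3.39, was identical within 1e-09 in wild type air replicate 3 and amiRAP2.2-12 air replicate 2, which marks the lower end that background removal left for this probe set. Such a shared minimum occurred in 33.2% of probe sets. The wild type air arrays lay within 0.037 of it and the amiRAP2.2-12 air arrays within 0.18, so every difference against these groups starts from the lower end of the probe set. Such differences are given as measured. Where the other group stood well above that end, a size is a lower bound only if the true level in these groups lay lower. Where both groups lay near that end, as amiRAP2.2-12 and wild type in air, the size bounds nothing. The amiRAP2.2-12 interaction rests on both of these groups, so its size is no bound either.

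HA-RAP2.12 rosettes held more HRA1 in air. The arrays read 5.16, 5.36 and 4.91 (5.14 ± 0.22, n = 3), so that the lowest of them stood 1.35 above the highest air array of the other genotypes. Under hypoxia, wild type read 11.97, 12.04 and 11.64 (11.89 ± 0.21, n = 3), HA-RAP2.12 read 10.62, 11.02 and 11.02 (10.89 ± 0.23, n = 3), and amiRAP2.2-12 read 11.61, 10.34 and 9.82 (10.59 ± 0.92, n = 3). No hypoxia array of either transgenic genotype reached the wild type range. The gap to wild type was 0.62 for HA-RAP2.12 but 0.034 for amiRAP2.2-12, whose replicate 1 nearly touched it. The SD in amiRAP2.2-12 hypoxia exceeded that of 97.4% of all probe sets in the same group, and the share was 86.0% for its SD in the wild type hypoxia group.

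**Figure D1:**
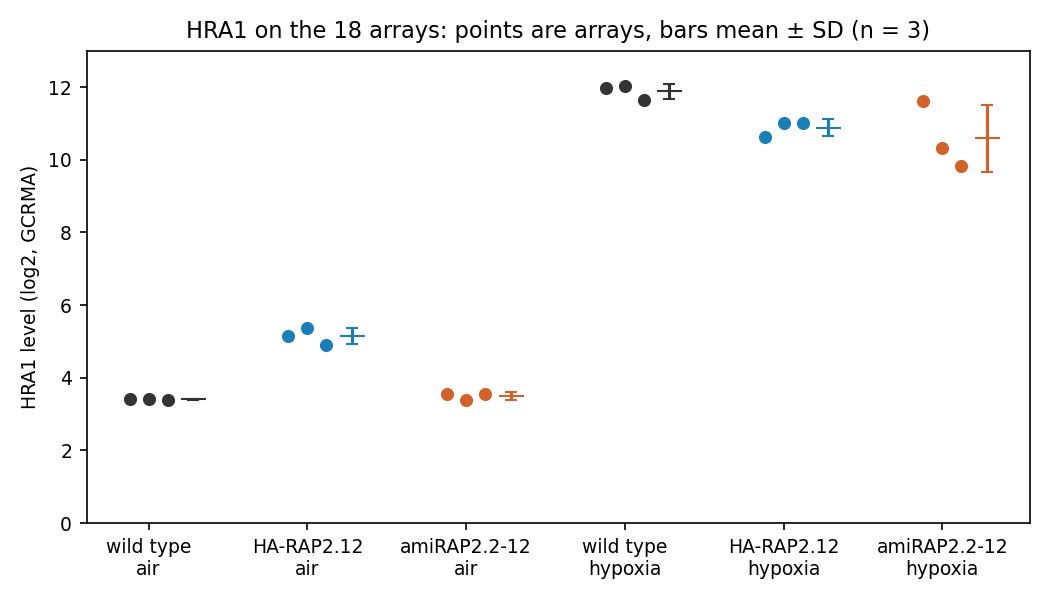
HRA1 level (log2, vertical axis) on each of the 18 arrays, with 3 points per group and the mean ± SD beside them. All 9 hypoxia arrays lie at or above 9.82, all 9 air arrays at or below 5.36, and HA-RAP2.12 stands apart from the other genotypes in air.

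From low to high, the group means ran wild type air (3.41), amiRAP2.2-12 air (3.50), HA-RAP2.12 air (5.14), amiRAP2.2-12 hypoxia (10.59), HA-RAP2.12 hypoxia (10.89) and wild type hypoxia (11.89). Neighbours were compared in the limma fit to all 18 arrays, with p-values adjusted over all probe sets. Wild type air and amiRAP2.2-12 air did not differ beyond their spread (adjusted p = 1), nor did amiRAP2.2-12 and HA-RAP2.12 under hypoxia (adjusted p = 0.919). HA-RAP2.12 air and amiRAP2.2-12 air did not overlap but missed the threshold (adjusted p = 0.0955), and so did HA-RAP2.12 and wild type under hypoxia (adjusted p = 0.117). The step from HA-RAP2.12 air to amiRAP2.2-12 hypoxia, 5.44 (SE 0.33), passed (adjusted p = 3.77e-07).

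The first question was how far oxygen shortage raised HRA1 in each genotype. In wild type the rise was 8.48 on the log2 scale (SE 0.33, 95% interval 7.76 to 9.19). In amiRAP2.2-12 it was 7.08 (SE 0.33, interval 6.37 to 7.80). In HA-RAP2.12 it was 5.74 (SE 0.33, interval 5.03 to 6.46), or 53.5-fold, from an air level above that lower end. All 3 passed in limma, with adjusted p = 8.27e-09, 4.92e-08 and 1.75e-07 in that order, against a background of 11.5%, 8.04% and 10.4% of probe sets called higher. Averaged over the 3 genotypes the rise was 7.10, and an exact permutation test that exchanged oxygen labels within each genotype gave a two-sided p = 0.00025, the smallest that its 8000 assignments allow.

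The second question was whether HRA1 in air differed between the transgenic genotypes and wild type. HRA1 was higher in HA-RAP2.12 than in wild type by 1.74 (SE 0.33, interval 1.02 to 2.45), a size that rests on wild type arrays at the lower end. The difference passed in limma (adjusted p = 0.0404), where 0.171% of probe sets were called higher. That call was narrow: it was lost when any 1 of the 15 arrays outside amiRAP2.2-12 hypoxia was left out (adjusted p from 0.0508 to 0.148, differences from 1.63 to 1.85). It was kept without any 1 of the amiRAP2.2-12 hypoxia arrays, and in a fit of only the 12 wild type and HA-RAP2.12 arrays (adjusted p = 0.00124), an alternative chosen after the data were examined. Against amiRAP2.2-12 in air, HA-RAP2.12 was 1.64 higher (SE 0.33, interval 0.93 to 2.35), which missed the threshold in limma (adjusted p = 0.0955, with 0.0923% of probe sets called higher). It passed with dim probe sets filtered out (adjusted p = 0.0343), and without amiRAP2.2-12 hypoxia replicate 1 (adjusted p = 0.000843) or replicate 3 (adjusted p = 0.0408). amiRAP2.2-12 differed from wild type by 0.10 (SE 0.33, interval -0.62 to 0.81) with limma adjusted p = 1 (0.00879% of probe sets called higher and 0.0044% lower, and 1768 of the 22746 at an unadjusted p under 0.05). With both groups near the lower end of the probe set, a fall below the wild type level could hardly be measured.

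Under hypoxia HRA1 read lower in both transgenic genotypes than in wild type, without passing the threshold. HRA1 in HA-RAP2.12 stood at 50.1% of the wild type level (95% interval 30.5% to 82.1%), a log2 difference of -0.998 (SE 0.33) that missed the threshold in limma (adjusted p = 0.117, with 2.58% of probe sets called lower). In amiRAP2.2-12 it stood at 40.7% (interval 24.8% to 66.7%), a difference of -1.30 (SE 0.33, adjusted p = 0.0799 in limma, with 0.813% called lower). The transgenic genotypes differed from each other by 0.30 (SE 0.33, interval -0.41 to 1.01, HA-RAP2.12 minus amiRAP2.2-12), with 0.466% of probe sets called higher and 0.545% lower. That difference was -0.0859 without amiRAP2.2-12 hypoxia replicate 3.

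These SEs share 1 estimate of spread, which depended on the amiRAP2.2-12 hypoxia arrays. Fitted to the 12 wild type and HA-RAP2.12 arrays, the same -0.998 had an SE of 0.15 and passed (adjusted p = 0.00591 in limma). It also passed without amiRAP2.2-12 hypoxia replicate 1 (adjusted p = 0.00419) or replicate 3, where the adjusted p lay just below the threshold. Without amiRAP2.2-12 hypoxia replicate 1, the difference between amiRAP2.2-12 and wild type was -1.81 (SE 0.18, limma adjusted p = 0.000214). Without replicate 3 that difference was -0.912, which missed the threshold, as did -1.17 without replicate 2. Fitted to only the amiRAP2.2-12 and wild type hypoxia arrays, the same -1.30 had a wider SE of 0.52 (limma adjusted p = 0.705).

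**Figure D2:**
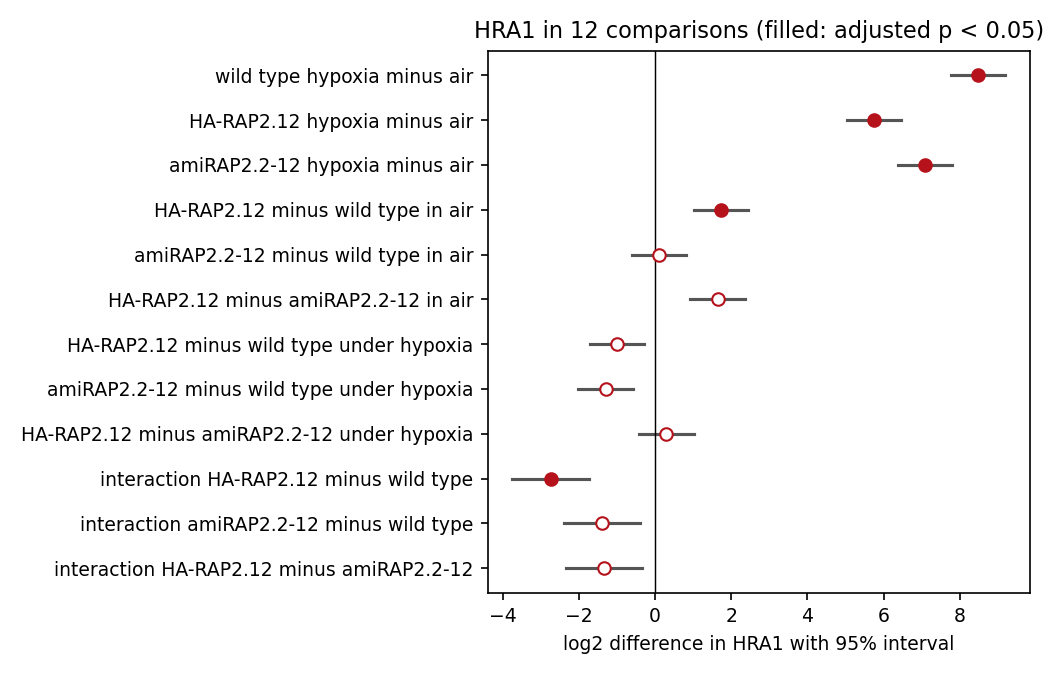
Log2 difference in HRA1 (horizontal axis) with its unadjusted 95% interval for 12 comparisons, filled where the adjusted p was under 0.05. The 3 rises under hypoxia, the difference of 1.74 in air and the interaction of -2.73 are filled.

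The third question was whether the size of the response depended on the genotype. The rise of HRA1 was smaller in HA-RAP2.12 than in wild type, with an interaction of -2.73 on the log2 scale (SE 0.47, interval -3.74 to -1.72, limma adjusted p = 0.0116, with 0.453% of probe sets called lower). With wild type air at the lower end, its size carries the same limit. This interaction is the difference under hypoxia (-0.998) less the difference in air (1.74). It was past the threshold in all 27 alternative settings tried, with values from -2.85 to -2.60. These are not independent checks. The fit of only the arrays compared is here the same as the fit of wild type and HA-RAP2.12 arrays alone. Several other settings left the value at -2.73 and could change only its SE and p-value. For amiRAP2.2-12 the interaction was -1.39 (SE 0.47, interval -2.40 to -0.38), short of the threshold in limma (adjusted p = 0.319, with 0.0967% called lower). Without amiRAP2.2-12 hypoxia replicate 1 it passed in limma at -1.91 (adjusted p = 0.00314). Fitted to only the wild type and amiRAP2.2-12 arrays, the same -1.39 had an SE of 0.54 (limma adjusted p = 0.544). The responses of the transgenic genotypes differed by -1.34 (SE 0.47, interval -2.35 to -0.33, HA-RAP2.12 minus amiRAP2.2-12), also short of the threshold (limma adjusted p = 0.391, with 0.0747% called lower).

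HRA1 was then set beside other low-oxygen genes, by their differences only. Of 49 loci on a list of core low-oxygen genes other than HRA1, 24 had a named probe set. In wild type 23 of the 24 rose and 0 fell (background 11.5% and 10.3%), with a median difference of 4.10 where the median of all probe sets was 0.00. The measured difference of HRA1, 8.48, lay above that of 21 of them. Above it were AT4G10270 (10.68, SE 0.37), AT4G33560 (9.03, SE 0.55) and AT2G17850 (8.76, SE 0.81). PDC2, a pyruvate decarboxylase of ethanol fermentation, rose by 2.17 and CML38, a calmodulin-like calcium sensor, by 2.53. In HA-RAP2.12 hypoxia 19 of the 24 rose and 0 fell (background 10.4% and 8.95%), with a median of 2.27. In amiRAP2.2-12 19 rose and 0 fell (background 8.04% and 8.27%), with a median of 2.57. Genes of this list other than AT1G33055, AT4G10270, AT3G27220 and AT4G28140 that are not among those most like HRA1 are named here after their values were seen.

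In air, 6 of the 24 were higher in HA-RAP2.12 than in wild type and 0 lower (background 0.171% and 0.365%), and the median difference was 0.35. In this difference 7 members lay above HRA1 and 17 below. In amiRAP2.2-12 air 0 of 24 passed in limma against wild type (background 0.00879% and 0.0044%), 0 reached an unadjusted p under 0.05 (7.77% of all probe sets), and the median was -0.09.

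**Figure D3:**
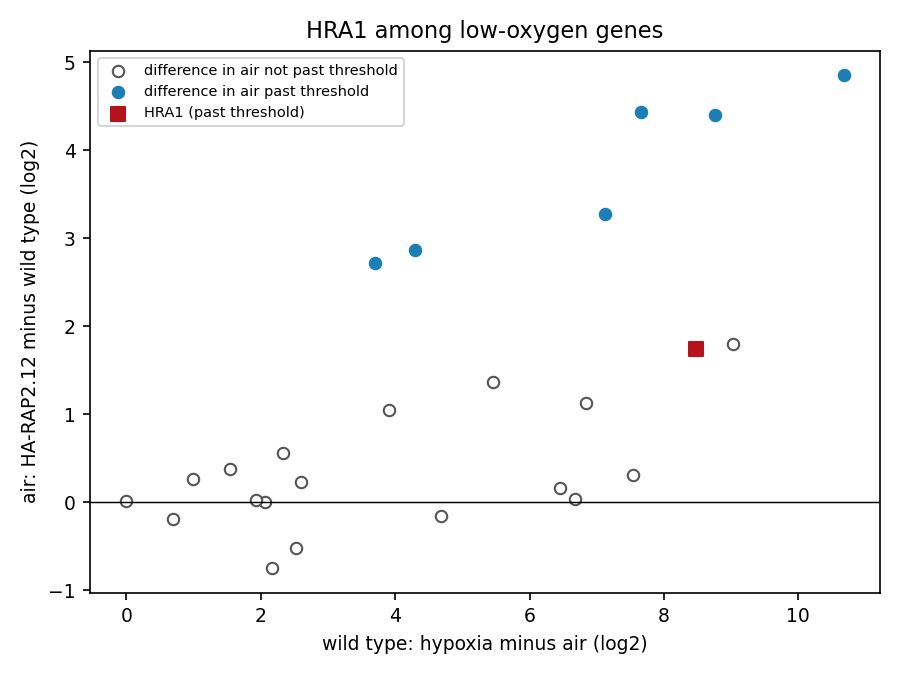
Each point is a low-oxygen gene, with its rise in wild type (horizontal axis, log2) against its difference between HA-RAP2.12 and wild type in air (vertical axis, log2). HRA1, at 8.48 and 1.74, lies far right but well below AT4G10270, at 10.68 and 4.85.

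Under hypoxia the list was lower in HA-RAP2.12 in 3 of 24 cases and higher in 0 (background 2.58% and 2.09%), with a median of -0.47 against -0.998 for HRA1, and 5 members differed by more in that direction. In amiRAP2.2-12 4 of 24 were lower and 0 higher (background 0.813% and 0.607%), with a median of -1.42 against -1.30 for HRA1. The HA-RAP2.12 interaction was below 0 and past the threshold for 4 of 24 (background 0.453%) and above it for 0 (background 1.17%), with a median of -1.65 against -2.73 for HRA1. For the amiRAP2.2-12 interaction 0 of 24 passed in limma (background 0.0967% lower and 0.0791% higher), 14 had an unadjusted p under 0.05 (9.59% of all probe sets), and the median was -1.23 against -1.39. These comparisons share their control arrays, so each gene's values stand side by side only.

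The wide spread of HRA1 in amiRAP2.2-12 hypoxia was seen across the list. HRA1 stood 0.28 below the wild type hypoxia mean in replicate 1 (-0.28), 1.55 below in replicate 2 (-1.55) and 2.07 below in replicate 3 (-2.07). The mean of the 24 genes differed by -0.31, -2.27 and -1.91 in the same arrays. Of the 24 genes, 23 had their highest value of the group in replicate 1, as HRA1 did, and AT5G45960 read the array minimum of 2.11 on all 3 arrays. HRA1 was lowest in replicate 3, as were 9 of the 24, whereas 14 were lowest in replicate 2. The shares of all probe sets highest or lowest in each replicate are not given, so these counts have no background beside them. The medians of the 3 arrays were 5.71, 5.59 and 5.75 in order of replicates, and replicate 2 lay apart on the second principal component. An array-wide shift was not tested. In HA-RAP2.12 hypoxia, HRA1 differed from the wild type mean by -1.26, -0.86 and -0.87, and the list mean by -0.70, -0.57 and -0.54.

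The root marker PYK10 also varied among the hypoxia arrays. In order of replicates, its hypoxia levels were 8.74, 8.68 and 8.55 for wild type, 5.10, 8.10 and 7.37 for HA-RAP2.12, and 8.21, 3.85 and 6.76 for amiRAP2.2-12. Of the 9 hypoxia arrays, it was lowest in amiRAP2.2-12 replicate 2 and next lowest in HA-RAP2.12 replicate 1, the lowest array of its group for HRA1. HRA1 was lowest of the 9 in amiRAP2.2-12 replicate 3 (9.82), where PYK10 read 6.76. The sum of the 3 root markers, on the linear scale and nearly all PYK10, was 385 to 437 in wild type hypoxia, 43.2 to 284 in HA-RAP2.12 hypoxia and 23.3 to 306 in amiRAP2.2-12 hypoxia. In air it was 237 to 253, 220 to 244 and 226 to 442. AT4G11290, near the array minimum throughout, was highest of the amiRAP2.2-12 hypoxia arrays in replicate 3 (2.66), where PYK10 was not. The part of root tissue in the HRA1 differences was not tested.

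**Figure D4:**
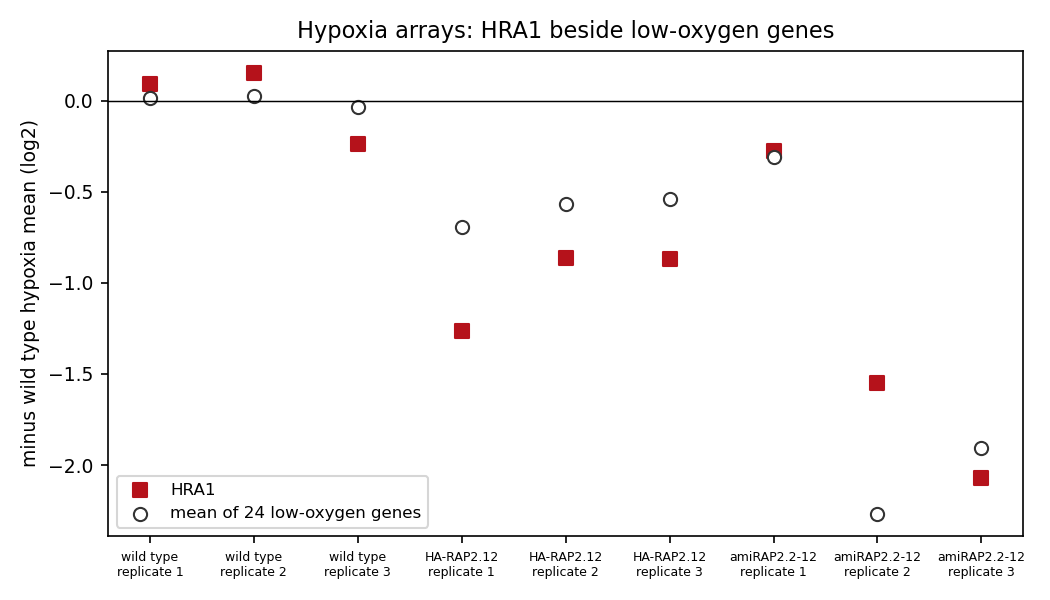
Difference from the wild type hypoxia mean (vertical axis, log2) on each of the 9 hypoxia arrays, for HRA1 (squares) and for the mean of 24 low-oxygen genes (circles). In amiRAP2.2-12, replicate 1 lies near wild type (-0.28 and -0.31) and replicates 2 and 3 lie between -1.55 and -2.27.

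The genes whose pattern was most like HRA1 were sought among 13512 other probe sets that name 1 gene. Likeness was the root mean square difference from HRA1 over the 18 arrays, after each probe set was centred on its own mean. AT4G33560 was closest, at 0.50, followed by AT3G27220 (0.70), AT1G33055 (0.93), AT3G23170 (1.00), AT4G28140 (1.05), IAGLU (1.097), AT4G10270 (1.21), AT2G17850 (1.28), AT5G48570 (1.31) and AT5G66985 (1.45). The next gene stood at 1.48 and the median of all candidates at 3.63. IAGLU encodes an indole-3-acetate glucosyltransferase and AT5G48570 (ROF2, FKBP65) a peptidyl-prolyl isomerase. A further 14 probe sets without a single gene name were closer than the last of the 10.

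These genes were chosen for likeness to HRA1 on the same arrays, so their values describe the choice and support nothing further. AT4G33560, the closest, was 1.79 higher in HA-RAP2.12 air than in wild type air (SE 0.55), against 1.74 for HRA1, though without passing (limma adjusted p = 0.239). Its HA-RAP2.12 interaction was -2.78 (SE 0.78, limma adjusted p = 0.117), against -2.73. AT3G27220 had differences of 1.12 in air (SE 0.31) and -1.88 for the interaction (SE 0.44), neither past the threshold (limma adjusted p = 0.170 and 0.0541).

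Other members of the 10 shared the rise and differed elsewhere. In HA-RAP2.12 air, AT4G10270 (4.85, SE 0.37), AT5G66985 (4.43, SE 0.58), AT2G17850 (4.40, SE 0.81) and AT1G33055 (3.27, SE 0.24) were higher than in wild type by more than HRA1. IAGLU went the other way, lower in HA-RAP2.12 both in air (-1.41, SE 0.25, limma adjusted p = 0.0299) and under hypoxia (-1.098, SE 0.25, limma adjusted p = 0.0257). AT4G28140 was lower in amiRAP2.2-12 under hypoxia (-2.01, SE 0.30, limma adjusted p = 0.00778).

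By Pearson's correlation over the 18 arrays, which ignores the size of a change, the 10 most like genes ran from AT3G27220 (r = 0.998) and AT4G33560 (r = 0.994) to Hop2, a co-chaperone gene (r = 0.974), among 2599 probe sets of 1 gene that passed in wild type. Both measures named 5 genes: these, AT1G33055, AT3G23170 and AT4G10270. The others were AT4G27450, AT1G04770, AT1G67360 and AT2G36950. The 18 points fall into an air cluster and a hypoxia cluster, so r mostly reflects the oxygen step. Over the 9 hypoxia arrays alone r was 0.981 for AT3G23170, 0.980 for AT4G10270, 0.968 for AT4G33560, 0.955 for AT3G27220 and 0.936 for AT1G33055. It was lower for the rest of the 10 closest by distance: 0.828 for AT2G17850, 0.761 for AT5G66985, 0.755 for AT5G48570, 0.717 for IAGLU and 0.522 for AT4G28140. For the genes named by correlation only, r ran from 0.608 (AT2G36950) to 0.931 (AT1G04770).

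**Figure D5:**
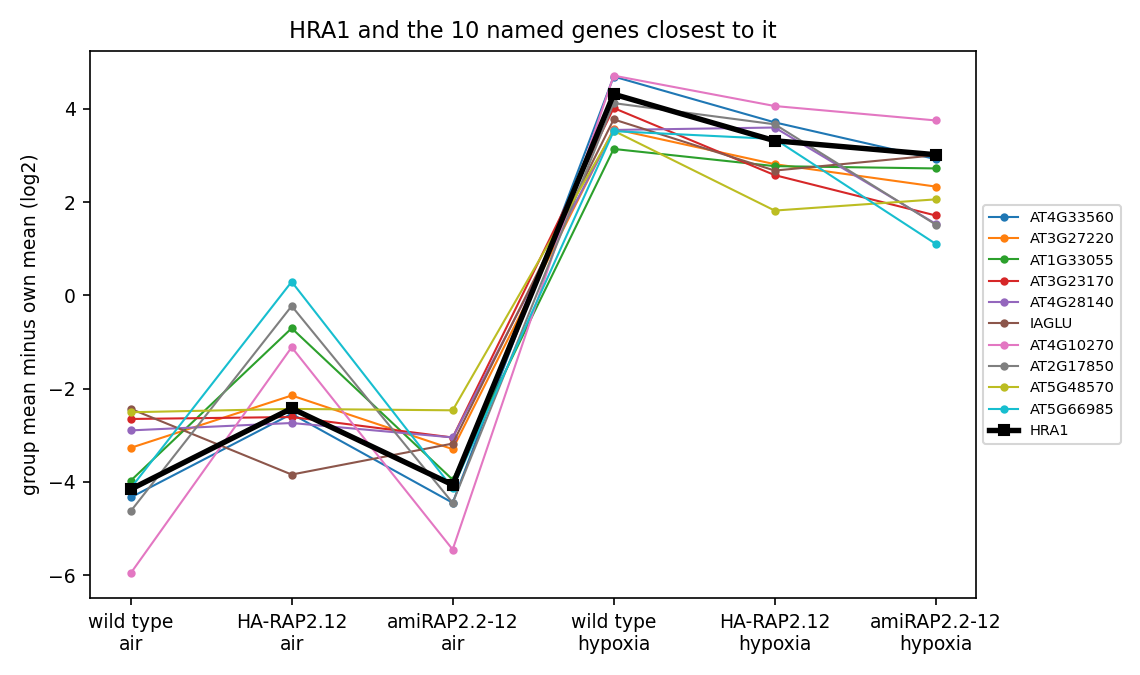
Group means (vertical axis, log2, each gene minus its own mean) across the 6 groups for HRA1 (black) and the 10 closest named genes. The line of AT4G33560 runs nearest to HRA1, and the genes fan out most in HA-RAP2.12 air.

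No other measured member of the trihelix family had a rise close to that of HRA1 in wild type. Of 27 other trihelix loci listed, 18 had a named probe set. In wild type 3 rose, 2 fell (background 11.5% and 10.3%), and the differences of the 18 ran from -1.06 to 1.35 with a median of -0.02. The 3 that rose were AT1G76870 (1.35, SE 0.39, from a wild type air mean of 3.15), AT3G10030 (0.66, SE 0.13) and GT-1 (0.51, SE 0.11). GT2 (-1.06, SE 0.25) and AT2G44730 (-0.70, SE 0.19) fell. AT1G76870 lies outside the rule for named genes and was added after its values were seen. In limma 0 of the 18 passed in the HA-RAP2.12 interaction or, in either transgenic genotype, against wild type in air or under hypoxia, where between 0.0044% and 2.58% of all probe sets were called in a direction. At an unadjusted p under 0.05 there were 1 of 18 in the interaction (11.2% of all probe sets), 1 for HA-RAP2.12 in air (9.01%) and 4 for it under hypoxia (16.2%). For amiRAP2.2-12 there were 0 in air (7.77%) and 0 under hypoxia (12.1%).

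Few genes on a list of oxygen sensing and group VII regulators could be read. Of its 21 loci, 3 had a named probe set: EIN3, a transcription factor of ethylene signalling, AT2G41760 and AT2G44420. Whether these 3 act upstream of HRA1 was not tested. In limma 0 passed in each of the 12 comparisons, where at most 11.5% of probe sets were called in a direction. At an unadjusted p under 0.05 there was 1 of the 3 in the hypoxia comparison of HA-RAP2.12 (27.9% of all probe sets) and 1 in that of amiRAP2.2-12 (26.7%), and their differences in wild type hypoxia ran from -0.03 to 0.25. Of 10 heat shock loci, 4 had a named probe set, and in wild type 2 rose, AT5G48570 (6.04, SE 0.47) and AT1G53540 (4.60, SE 0.72), and 0 fell (background 11.5% and 10.3%).

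On the chromosome, 4 of the 12 gene loci nearest to HRA1, 6 on each side, had a named probe set. AT3G10030, the gene next to it, rose in all 3 genotypes, by 0.66 in wild type (SE 0.13), 0.74 in HA-RAP2.12 (SE 0.13) and 0.91 in amiRAP2.2-12 (SE 0.13). AT3G10020, beyond it and itself on the low-oxygen list, rose by 0.69 in wild type (SE 0.09), 0.53 in HA-RAP2.12 (SE 0.09) and 0.64 in amiRAP2.2-12 (SE 0.09). On the other side AT3G10060 fell in wild type (-0.35, SE 0.07) and was higher in amiRAP2.2-12 than in wild type under hypoxia (0.30, SE 0.07, limma adjusted p = 0.0493), and AT3G10080 did not pass (0.12, SE 0.31). In HA-RAP2.12 air, where HRA1 was 1.74 higher, AT3G10020 and AT3G10030 differed from wild type by -0.19 (SE 0.09) and -0.28 (SE 0.13), and neither passed.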

How the data were processed

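Labels placed the 18 arrays in 6 groups of 3. The authors deposited 1 log2 value per probe set and array. GCRMA is the tool named by the submitters' processing notes, without a version. The table held 22810 probe sets, and 64 control probe sets were left out. GEO's platform annotation listed 14016 of the 22746 tested, of which 13513 named 1 gene and 503 several, and 8730 were not listed. The RefSeq gene table (TAIR10.1) gave locus names and the order of neighbouring genes.

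The model had 1 mean per group and all 18 arrays (lmFit and eBayes, limma 3.58.1, R 4.3.3). Tests were two-sided, unfiltered and without a block, and p-values were adjusted by Benjamini-Hochberg within a comparison, with a threshold of 0.05. Levels are mean ± SD, differences carry the SE of the fit. Precision is limited by the number of arrays. The fit was tested on simulated data. Plots used matplotlib 3.10.9 under Python 3.11.15.

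HRA1 and the gene lists, written from general knowledge, were chosen with earlier results of these data known. Named genes are HRA1, the 10 closest by distance and by correlation, up to 4 per list with the smallest adjusted p in wild type, and the chromosomal neighbours. The brightest probe set stood for a gene. Alternatives were quantile normalization, median centring, a filter that kept 13697 probe sets (over log2 4 on 3 or more arrays), leaving out 1061 _s_at and _x_at probe sets, eBayes with trend and robust options, arrayWeights, only the arrays compared, a replicate block, the mean of all probe sets of a gene and leaving out each array. The mean of all probe sets was applied to the low-oxygen list, where 0 genes had several, so it could change nothing. A fit of wild type and HA-RAP2.12 arrays alone was added after the data were examined. A planned description of the promoter and protein of HRA1 was not run.

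Same-numbered arrays were checked for pairing, and no pairing was used. No 2 arrays held identical values.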

Additional observations from a re-analysis of the deposited data

Results flagged for a closer look

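The response of HRA1 to hypoxia differed between HA-RAP2.12 and wild type by the test of the difference itself, with an interaction of -2.73 (SE 0.47, limma adjusted p = 0.0116). HRA1 read higher on every hypoxia array of both genotypes than on any of their air arrays. Among the 10 genes most like it, which were chosen on these arrays and so give no independent support, an interaction below 0 passed (0.453% of all probe sets) for AT4G10270 (-5.50, SE 0.52, limma adjusted p = 0.000584), AT5G66985 (-4.60, SE 0.82, limma adjusted p = 0.0159) and AT1G33055 (-3.64, SE 0.34, limma adjusted p = 0.000479). Under hypoxia these 3 genes differed from wild type by -0.65, -0.17 and -0.37 in that order, and HRA1 by -0.998, none past the threshold in limma. In wild type air AT5G66985 stood at the array minimum of 2.11.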

How the results depend on the processing

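The 3 rises under hypoxia and the HA-RAP2.12 interaction kept direction and call in every alternative, including the replicate block, and the rise averaged over genotypes ranged from 6.93 to 7.23. The difference in air between HA-RAP2.12 and wild type lost its call with the replicate number as a block (1.74, limma adjusted p = 0.0613) and in 15 of the 18 fits without 1 array (1.63 to 1.85). In other settings 4 differences gained a call. With arrayWeights these were HA-RAP2.12 minus amiRAP2.2-12 in air (1.63), HA-RAP2.12 (-1.01) and amiRAP2.2-12 (-1.86) minus wild type under hypoxia, and the amiRAP2.2-12 interaction (-1.91). There the amiRAP2.2-12 hypoxia arrays had weights of 0.446, 0.128 and 2.37 in order of replicates. The weighted values of that group thus rested mostly on replicate 3, its lowest array for HRA1. With the filter on dim probe sets the differences that gained a call were 1.64 in air and -1.30 for amiRAP2.2-12 under hypoxia, and with wild type and HA-RAP2.12 arrays alone -0.998. The fits without 1 array gave 1.53 to 1.76 for the first of the 4 differences, -1.12 to -0.865 for the second, -1.81 to -0.912 for the third and -1.91 to -1.01 for the interaction. HA-RAP2.12 minus amiRAP2.2-12 under hypoxia ranged from -0.0859 to 0.81 in those fits and was below 0 without amiRAP2.2-12 hypoxia replicate 3. The cause was not tested. Of the 10 closest genes, 9 or 10 stayed with quantile normalization or without 1 array, and 5 with correlation as the measure. Fits of only the arrays compared changed no HRA1 call. Of 1138 values of other results, 1071 stayed the same, 36 lost a call, 30 gained one, 0 reversed and 1 count moved. For differences, the same means the same direction and call. The 1138 include counts of genes, for which it means a similar count, and the list counts could not change. GCRMA values carry no detection call, which limits what can be said of HRA1 in wild type and amiRAP2.2-12 air. Deviations from group means of same-numbered arrays correlated at a median r of 0.017 over 45 pairs (9 above 0.1). Most of the 45 pairs joined different genotypes. Between air and hypoxia of 1 genotype all 9 were positive, from 0.051 to 0.490, with 6 above 0.1. The labels do not say that the numbers pair the arrays, and no pairing was used. A pairing within a genotype was not excluded, and the replicate block, shared by all genotypes, does not test it.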
